A study of Drosophila sechellia and Drosophila melanogaster and Drosophila simulans with 18 samples.

Results

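The cuticle protein genes described here were taken by symbol, as every gene of the 3 deposited expression tables whose name, with any species prefix removed, begins with *Cpr* and a digit, *Lcp*, *Twdl*, *Ccp84*, *Edg*, *Pcp* or *Acp65A*. The rule found 125 genes among the 17649 of the *D. melanogaster* table. It found 0 among the 15372 genes of the *D. simulans* table and 0 among the 17273 of the *D. sechellia* table, in which most genes carry only a GD or GM number, so the results below are those of *D. melanogaster*. The study asked which genes respond in each species when flies eat a fruit toxin. The groups compared were *D. melanogaster* HA and *D. melanogaster* Control, both of strain 14021-0231.36. HA is hexanoic acid, a medium-chain fatty acid of the fruit of *M. citrifolia*, and HA flies fed for 24 h on instant food with 0.23% of it, whereas Control flies fed on the same food without it. All were whole adult females reared at 20 °C, and they were 0 to 3 days past eclosion when the 24 h of feeding began. There were 3 libraries per group, with 10 flies pooled in each library.

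Each table gives 1 FPKM value per gene and diet, a level scaled by transcript length and library depth, which the authors' program pooled over the 3 libraries. With no value per library to use, the differences below carry no SD, interval or p-value and cannot be set against the spread between libraries. The log2 ratios below are HA over Control after 1 FPKM was added to each value, which understates the change of genes with low values. A gene was called higher or lower on HA food when it had at least 1 FPKM in either diet and its log2 ratio was at least 0.5 in size, a fold of 1.41 for a gene of high level. In whole flies, fewer cells of a type and less RNA per cell cannot be told apart. The age range of the flies is the same for both diets in the methods, and the mix of ages within a library is not given in the sources used here.

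Insect cuticle is secreted by the epidermis and by other ectodermal epithelia such as the trachea, foregut and hindgut, as layers of chitin fibers bound by structural proteins. Most of these proteins belong to the CPR family, which binds chitin through a conserved stretch called the Rebers and Riddiford consensus, and the number in a *Cpr* symbol gives the place of the gene on the cytological map. *Lcp* genes were first isolated as larval cuticle proteins, *Pcp* as a pupal and *Acp65Aa* as an adult cuticle protein, *Edg* genes for their dependence on ecdysone, and *Twdl* genes encode the Tweedle proteins, which affect body shape in larvae and pupae. Each molt uses its own set, and a young adult goes on adding inner cuticle layers for some days after eclosion.

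Most cuticle protein genes were at or near 0 in these adult females. Of the 125 genes, 44 reached 1 FPKM in either diet, which is 35.2%, against 60.01% of all genes in the table. A further 53 were above 0 but under 1 FPKM, and 28 were listed at 0 in both diets. Detection differed between the symbol groups. *Acp65Aa* and *Pcp*, each the only gene of its group, passed, as did 30 of 70 *Cpr* genes, 5 of 17 *Lcp* genes, 2 of 7 *Ccp84* genes, 1 of 3 *Edg* genes and 4 of 26 *Twdl* genes. The 3 genes annotated as pseudogenes (*Lcp1Psi*, *Lcp65APsi* and *TwdlU*) did not pass. The median annotated protein length was 192 residues for the genes that passed and 191.5 for the 81 others, and the longest annotated transcripts had medians of 940 and 813 nt. Just inside the limit were *Edg91*, at 0.844 FPKM on HA and 1.17 FPKM on Control food, and *TwdlE*, at 1.21 FPKM on HA and 1.02 FPKM on Control food. Just outside it were *Cpr50Cb* (0.852 FPKM on HA, 0.883 FPKM on Control) and *Cpr30B* (0.757 FPKM on HA, 0.640 FPKM on Control).

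**Figure D1:**
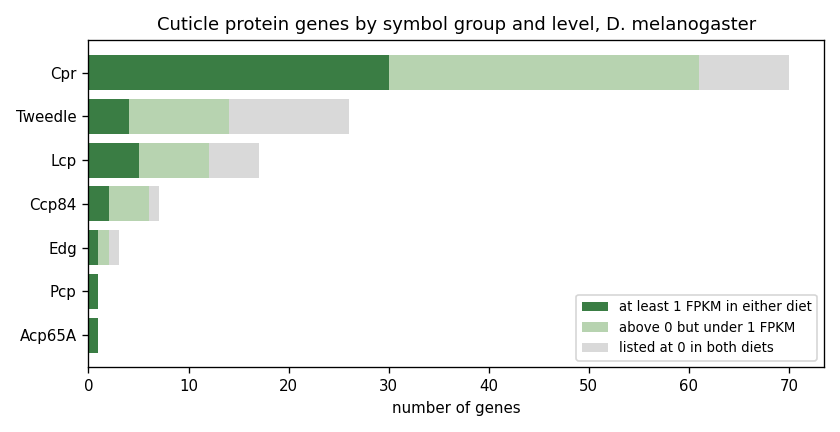
Number of *D. melanogaster* cuticle protein genes in each symbol group, split into those with at least 1 FPKM in either diet, those above 0 but under 1 FPKM, and those listed at 0 in both. The Cpr group holds 30 of the 44 genes that passed, and 12 of the 26 Tweedle genes were listed at 0.

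The expressed part of the family was dominated by 4 genes. *Cpr49Ae* (FBgn0033728; 2R of BDGP6, 12402216 to 12405108) had 523 FPKM on HA and 494 FPKM on Control food. *Acp65Aa* (FBgn0020765; 3L, 6152050 to 6152745), the adult cuticle protein, had 468 FPKM on HA and 353 FPKM on Control food. *Cpr65Au* (FBgn0042119; 3L, 6131242 to 6132109) was at 240 and 359 FPKM on HA and Control food, and *Cpr49Ab* (FBgn0050042; 2R, 12378440 to 12379396) at 168 and 235 FPKM. The 4 genes sit in 2 tandem groups, at 49A on 2R and at 65A on 3L. They held 75.2% of the summed FPKM of all 125 genes on HA food and 76.3% on Control food. *Acp65Aa* and *Cpr65Au* stood at nearly the same level on Control food, whereas *Acp65Aa* was well above *Cpr65Au* on HA food.

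The summed FPKM of the 125 genes was nearly equal in the diets, at 1862 on HA and 1887 on Control food (log2 of the ratio -0.02). Without the 4 leading genes it was 462 on HA and 447 on Control food (0.05). Below them came *Cpr92F* (3R) with 91.6 FPKM on HA and 77.5 FPKM on Control food, *Cpr67B* (3L) with 53.5 and 53.1 FPKM, and *Cpr47Ea* (2R) with 45.2 and 49.7 FPKM. *Cpr57A* (2R), whose exons overlap the odorant-binding protein gene *Obp57d*, had 16.2 FPKM on HA and 17.5 FPKM on Control food (log2 ratio -0.11). In all, 17 of the 125 genes had at least 10 FPKM in either diet.

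**Figure D2:**
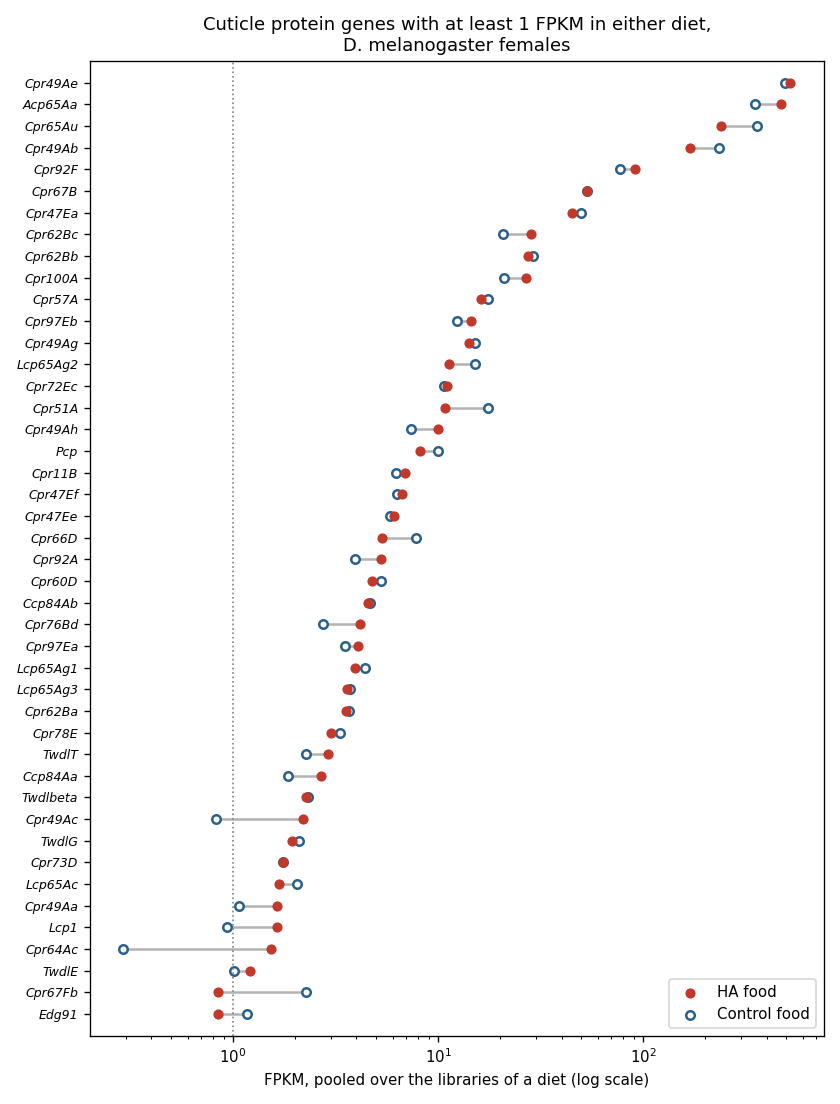
FPKM on HA food (filled) and Control food (open) of the 44 cuticle protein genes with at least 1 FPKM in either diet, on a log axis, 1 pooled value per diet and no error. The values run from *Cpr64Ac*, at 0.292 FPKM on Control food, to *Cpr49Ae*, at 523 FPKM on HA food.

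The expressed genes had no common direction. Of the 44 genes that passed, 22 had a higher and 22 a lower value on HA food, and their median log2 ratio was 0.0016, beside 0.0017 over the 10592 genes of the table that passed the same filter, 50.2% of which were higher on HA food. Called higher were 2 of the 44 genes, where 2.08% of all genes passing the filter were called higher. Called lower were 3 of the 44, where 6.72% of all genes were called lower. These shares of 4.55% and 6.82% rest on 2 and 3 genes, and the share called lower is near that of all genes. The other 39 genes stayed within the limit. Both genes called higher had under 1 FPKM on Control food and so passed the filter only through their HA value, and *Cpr67Fb*, called lower, passed only through its Control value. Of the 39 genes with at least 1 FPKM in both diets, 0 were called higher and 2 lower, where 1.21% and 5.93% of all genes with at least 1 FPKM in both diets were called.

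The count on the higher side depended on the treatment of low values. Among the 27 cuticle protein genes from 1 to below 10 FPKM, 2 were called higher and 1 lower, where 3.30% and 6.46% of all such genes were, and among the 17 of at least 10 FPKM, 0 were called higher and 2 lower, where 1.43% and 6.86% of all such genes were. With a pseudocount of 0.1, 6 were called higher and 4 lower (2.62% and 8.87% of all genes), and with none also 6 and 4 (2.77% and 9.19%). The genes added on the higher side, *Ccp84Aa*, *Cpr49Aa*, *Cpr76Bd* and *Lcp1*, all had under 5 FPKM, and the gene added on the lower side was *Cpr66D*. With at least 5 FPKM in either diet, 0 of 24 were called higher and 2 lower (1.68% and 6.62% of all genes), and with a mean of at least 1 FPKM, 1 and 3 of 43 (1.87% and 6.63%). At a log2 ratio of 1 none of the 44 was called in either direction (1.04% and 1.28% of all genes). The counts of 2 and 3 held with no filter beyond a value above 0 (1.58% and 5.05% of all genes) and after centring on the median of all genes (2.06% and 6.76%).

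**Figure D3:**
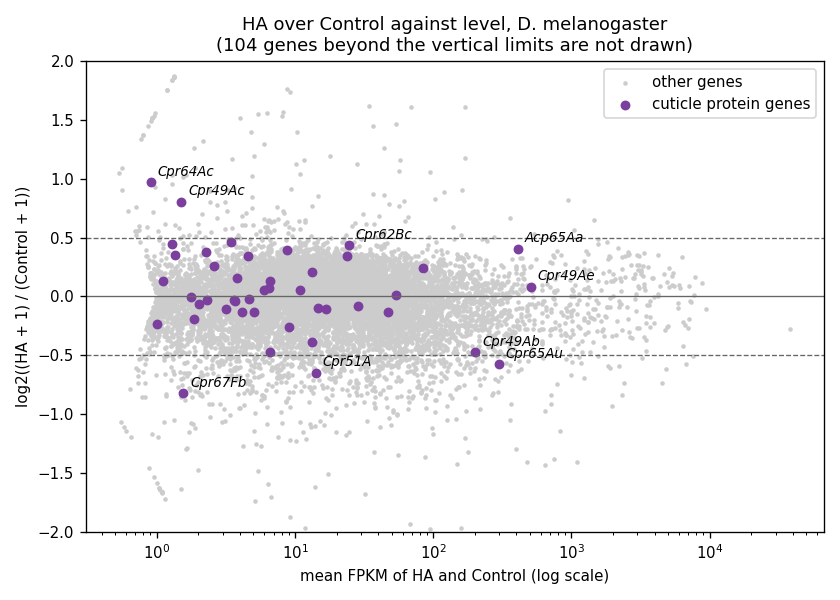
Log2 ratio of HA over Control against the mean FPKM of the diets (log axis) for cuticle protein genes (purple) and all other genes (gray) with at least 1 FPKM in either diet. Genes beyond 2 in size (104) are not drawn. Dashed lines mark 0.5 in size, and 5 cuticle protein genes lie beyond them, from *Cpr67Fb* at -0.82 to *Cpr64Ac* at 0.97.

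The 2 genes called higher were of low level. *Cpr64Ac* (FBgn0035512; 3L) had 1.53 FPKM on HA and 0.292 FPKM on Control food, a log2 ratio of 0.97. Its locus in the table, 4193993 to 4224003, is shared with 6 other genes. Its neighbors *Cpr64Aa*, *Cpr64Ab* and *Cpr64Ad*, at the same locus, stayed between 0 and 0.4497 FPKM on HA food and between 0.0545 and 0.392 FPKM on Control food. *CG43367*, which overlaps *Cpr64Ac*, had 3.53 FPKM on HA and 2.99 FPKM on Control food. *Cpr49Ac* (FBgn0033725; 2R, 12386666 to 12390057) had 2.18 FPKM on HA and 0.826 FPKM on Control food, a log2 ratio of 0.80. It was the only called gene with no other gene overlapping it in the annotation.

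The 3 genes called lower spanned the range of levels. *Cpr65Au* was the only abundant one, with 240 FPKM on HA and 359 FPKM on Control food and a log2 ratio of -0.58. Its exons overlap an antisense RNA, *CR46005*, which had 0.217 FPKM on HA and 0.356 FPKM on Control food. *Cpr51A* (FBgn0033942; 2R, 14512559 to 14515211) had 10.8 FPKM on HA and 17.5 FPKM on Control food (log2 ratio -0.65). It overlaps *CG30197*, with which it shares its locus in the table, and *CG30197* was also lower, at 94.5 FPKM on HA and 170 FPKM on Control food (log2 ratio -0.84). How reads were divided between these overlapping genes was not tested. *Cpr67Fb* (FBgn0036110; 3L, 10893646 to 10894743) had 0.844 FPKM on HA and 2.26 FPKM on Control food (log2 ratio -0.82), and its exons overlap the antisense RNA *CR45171*, at 0.978 FPKM on HA and 1.23 FPKM on Control food. A further setting left out the genes at shared loci and the near-identical copies *Lcp65Ab1*, *Lcp65Ab2*, *Lcp65Ag1* and *Lcp65Ag2*. Of the 33 cuticle protein genes that then passed, *Cpr49Ac* was called higher and *Cpr65Au* lower. *Lcp65Ag3* was kept in that setting. The genes behind the shares over all genes (2.08% higher, 6.72% lower) were not reduced in the same way.

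Between the limit of 0.5 and a looser one of 0.3 lay 9 further genes on the higher and 3 on the lower side. At 0.3 the counts were 11 higher and 6 lower of 44, which is 25% and 13.6%, where 7.10% and 16.1% of all genes passing the filter were called. These counts are a description of genes chosen with results of these data known and carry no test. Of the 11 genes on the higher side, *Cpr64Ac*, *Cpr49Ac* and *Lcp1* passed the filter only through their HA value, and of the 6 on the lower side *Cpr67Fb* only through its Control value. Of the 39 genes with at least 1 FPKM in both diets, 8 were higher and 5 lower at 0.3, where 6.30% and 15.2% of all such genes were. Among genes from 1 to below 10 FPKM, 7 of 27 cuticle protein genes were higher and 2 lower at 0.3, where 7.90% and 15.9% of all such genes were. Among genes of at least 10 FPKM, 4 of 17 were higher and 4 lower, where 6.67% and 16.1% of all such genes were. The 4 on the higher side were *Acp65Aa*, with a log2 ratio of 0.41, *Cpr62Bc*, *Cpr100A* and *Cpr49Ah*. *Cpr62Bc* (FBgn0035281; 3L, 1840281 to 1842084) had 28.3 FPKM on HA and 20.6 FPKM on Control food (0.44). *Cpr100A* (FBgn0039805; 3R, 30867521 to 30869184) had 26.8 FPKM on HA and 20.9 FPKM on Control food (0.34), and *Cpr49Ah* (2R) 10.01 and 7.38 FPKM (0.39). The 7 of lower level were *Cpr64Ac* and *Cpr49Ac*, described above, and *Cpr76Bd*, *Lcp1*, *Ccp84Aa*, *Cpr49Aa* and *Cpr92A*. *Cpr76Bd*, whose protein of 1231 residues is the longest of the 44, had 4.15 FPKM on HA and 2.74 FPKM on Control food (0.46), and *Cpr92A* had 5.25 and 3.92 FPKM (0.35).

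On the lower side between the limits were *Cpr49Ab*, *Cpr66D* and *Lcp65Ag2*. *Cpr49Ab* had a log2 ratio of -0.48, from the 168 FPKM on HA and 235 FPKM on Control food given above. *Cpr66D* (3L) had 5.34 FPKM on HA and 7.80 FPKM on Control food (-0.47), and *Lcp65Ag2* (3L) 11.3 and 15.1 FPKM (-0.38). In all, 61.4% of the 44 were under 0.3 in size, beside 76.8% of all genes passing the filter. The median level of all these genes was 15.3 FPKM on HA and 15.2 FPKM on Control food. For the 44 it was 5.29 and 5.57 FPKM. At 0.3, of the 17 cuticle protein genes of at least 10 FPKM, 4 were higher and 4 lower (6.67% and 16.1% of all such genes). Of the 27 from 1 to below 10 FPKM, 7 were higher and 2 lower (7.90% and 15.9%). The part of level in the gap was not tested. The middle range of the 44 ran from -0.13 to 0.28 (25th to 75th percentile), beside -0.19 to 0.14 for all genes.

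Cuticle protein genes arose largely by tandem duplication, and 91 of the 125 lie in 15 groups of at least 3 members that are no more than 20000 bases from their neighbor. In these groups 26 genes passed the filter, against 18 of the 34 outside them, and in 4 groups no member did. The groups with no member that passed were the 12 *Twdl* genes from *TwdlM* to *TwdlD* on 3R, the 4 of *TwdlX*, *TwdlY*, *TwdlZ* and *Twdlalpha* on X, *Cpr65Ea* to *Cpr65Ec* on 3L, and *Cpr78Ca*, *Cpr78Cb*, *Edg78E* and *Cpr78Cc* on 3L. Of the 12 *Twdl* genes 9 were listed at 0 in both diets.

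The group at 65A on 3L was the largest, with 19 genes from *Lcp65Ag3* to *Cpr65Az*. Only *Acp65Aa* and *Cpr65Au* were abundant. *Lcp65Ag1*, *Lcp65Ag2*, *Lcp65Ag3* and *Lcp65Ac* lay between 1.68 and 11.3 FPKM on HA food and between 2.06 and 15.1 FPKM on Control food, and the other 13 were under 1 FPKM. The abundant pair went in opposite directions, with log2 ratios of 0.41 for *Acp65Aa* and -0.58 for *Cpr65Au*, and the 4 *Lcp* genes were all lower on HA food, from -0.38 to -0.04. The summed FPKM of the group was 729 on HA and 738 on Control food. *Lcp65Ag1* to *Lcp65Ag3* encode proteins of 105 residues each and are close copies of one another, so that reads can be shared between them and their separate values are uncertain.

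The group at 49A on 2R held 8 genes, of which 6 passed. Levels here ran from 523 FPKM on HA and 494 FPKM on Control food for *Cpr49Ae* to 0 in both diets for *Cpr49Ad*. The abundant *Cpr49Ab* was lower on HA food (-0.48) and *Cpr49Ae* nearly equal (0.08). *Cpr49Ac* (0.80), *Cpr49Ah* (0.39) and *Cpr49Aa* (0.35) were higher, and *Cpr49Ag*, at 14.2 FPKM on HA and 15.2 FPKM on Control food, stood at -0.10. *Cpr49Aa* had 1.64 FPKM on HA and 1.07 FPKM on Control food.

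**Figure D4:**
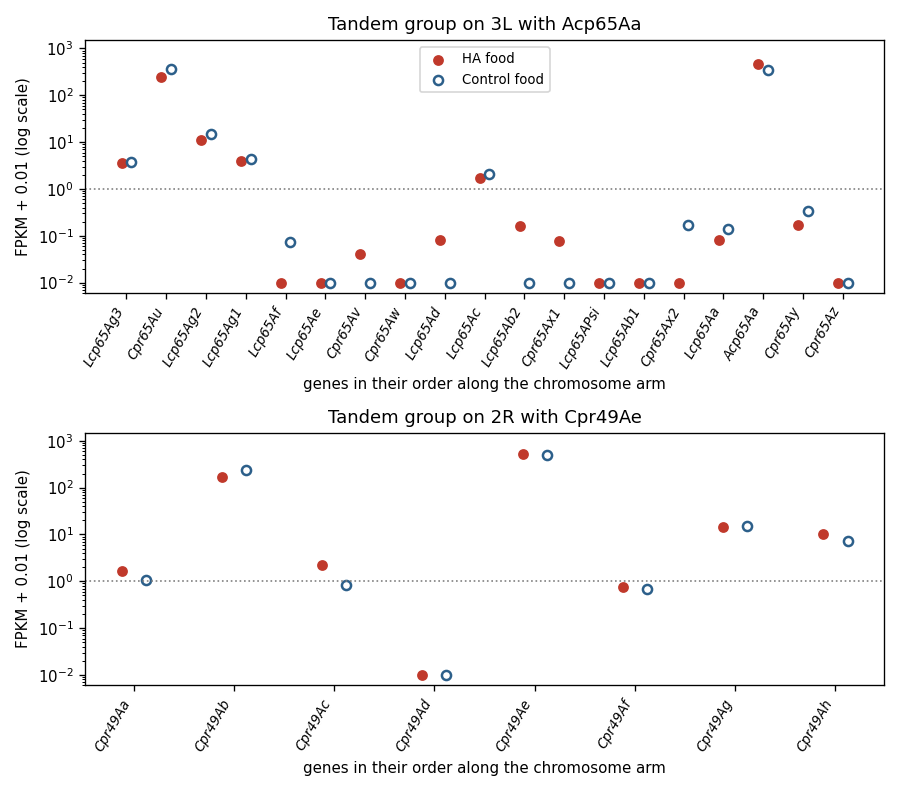
FPKM + 0.01 (log axis) on HA food (filled) and Control food (open) of each gene in the tandem groups at 65A (19 genes) and 49A (8 genes), in chromosomal order. The dotted line marks 1 FPKM; abundant genes such as *Acp65Aa*, with 468 FPKM on HA food, stand beside genes listed at 0.

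Smaller groups had 1 expressed member or a few. In the *Cpr62B* group on 3L, *Cpr62Bb* (27.5 FPKM on HA, 29.2 FPKM on Control) and *Cpr62Ba* (3.57 and 3.67 FPKM) were close to equal while *Cpr62Bc* was higher on HA food. In the *Cpr47E* group on 2R, *Cpr47Ea* (-0.13), *Cpr47Ee* (0.05) and *Cpr47Ef* (0.07) passed out of 7 genes, and *Cpr47Ea* shares its locus with the odorant receptor gene *Or47a*, which had 0.499 FPKM on HA and 0.388 FPKM on Control food. In the *Cpr76B* group, *Cpr76Bd* alone of 4 genes passed, and the other 3 were under 0.4 FPKM in both diets. *Cpr72Ec*, at 11.1 FPKM on HA and 10.6 FPKM on Control food, was the only gene of its group of 3 that passed.

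Of the genes named for the larva and the pupa, *Lcp65Ag2* was the highest, at 11.3 FPKM on HA and 15.1 FPKM on Control food. *Lcp1*, *Lcp2*, *Lcp3* and *Lcp4*, larval cuticle proteins encoded side by side on 2R, stayed under 1 FPKM in both diets except for *Lcp1*, which had 1.63 FPKM on HA and 0.939 FPKM on Control food (log2 ratio 0.44). *Pcp*, the pupal cuticle protein gene, had 8.14 FPKM on HA and 9.95 FPKM on Control food (-0.26). *Pcp* lies inside the purine synthesis gene listed as *ade3*, with which it shares its locus in the table and which had 33.7 FPKM on HA and 29.4 FPKM on Control food. Of the ecdysone-dependent *Edg* genes, *Edg91* stood at -0.24, *Edg78E* at 0.0215 FPKM on HA and 0.354 FPKM on Control food, and *Edg84A* was listed at 0. The *Ccp84* genes, a group beside *Edg84A* on 3R, passed with *Ccp84Ab* (4.57 FPKM on HA, 4.65 FPKM on Control) and *Ccp84Aa* (2.69 and 1.85 FPKM, log2 ratio 0.37).

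The 4 Tweedle genes that passed were all under 3 FPKM and none was called. *TwdlT* had 2.91 FPKM on HA and 2.28 FPKM on Control food (0.25), at a locus shared with 11 genes. *Twdlbeta* had 2.26 and 2.33 FPKM (-0.03), *TwdlG* 1.95 and 2.09 FPKM (-0.07), and *TwdlE* stood at 0.13. *TwdlE* overlaps *lectin-28C*, which was lower, with 18.7 FPKM on HA and 31.4 FPKM on Control food (-0.72).

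By chromosome arm, 7 of the 10 expressed genes on 3R were higher on HA food, with a median log2 ratio of 0.22 and none called. On 3L 6 of 17 were higher (median -0.04), on 2R 7 of 14 (median 0.01) and on 2L 1 of 2. The only one of 8 genes on X that passed, *Cpr11B*, had 6.91 FPKM on HA and 6.21 FPKM on Control food (0.13). The expressed genes on 3R included *Cpr92F* (0.24), *Cpr97Eb* (14.4 FPKM on HA, 12.3 FPKM on Control) and *Cpr97Ea* (4.05 and 3.53 FPKM), which had the same direction.

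Other genes of cuticle formation were counted in lists. Of 23 other cuticle and apical matrix genes, 12 passed and 0 were called in either direction. Of these 12, 10 were higher on HA food with a median log2 ratio of 0.19, among them the adult cuticle gene *Acp1*, at 234 FPKM on HA and 220 FPKM on Control food (0.09). Resilin, the elastic protein of wing hinges, was near 0 (0.0137 FPKM on HA, 0.0288 FPKM on Control), as was the Tweedle gene *Tb*, whose symbol the selection rule does not take (0.146 and 0.179 FPKM). Of 28 genes of chitin synthesis, assembly and turnover 24 passed and 0 were called, with a median of -0.03. Of all genes passing the filter 2.08% were called higher and 6.72% lower, which comes to few genes in lists of these sizes. The chitin synthase gene *kkv* had 1.41 FPKM on HA and 0.922 FPKM on Control food (0.33), and *mmy*, which makes the activated sugar for chitin, 33.3 and 40.9 FPKM (-0.29).

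Of the cuticle tanning and pigment genes, 19 of the 22 found in the table passed, 16 of them lower on HA food, with a median log2 ratio of -0.22. Called lower were 3 of the 19 and called higher 0, where 6.72% and 2.08% of all genes passing the filter were called. The genes called lower were *yellow-g* (143 FPKM on HA, 261 FPKM on Control, -0.87), *yellow-h* (6.01 and 11.8 FPKM, -0.87) and *yellow-f* (2.22 and 3.75 FPKM, -0.56). *yellow-g* is known for its expression in the ovary and its part in the eggshell, not in body cuticle. *yellow-g2*, which was not called, was also lower, with 150 FPKM on HA and 208 FPKM on Control food (-0.47). The tissue in which the other genes of the list were expressed was not tested. Among the genes of the list outside the *yellow* family, none of which was called, *ple*, the tyrosine hydroxylase, had 19.8 FPKM on HA and 19.5 FPKM on Control food (0.02). *Ddc*, the dopa decarboxylase, stood at -0.21 and *e*, which joins dopamine to beta-alanine, at -0.27. The lowest ratio among them was that of *Dat*, the dopamine N-acetyltransferase, with 37.3 FPKM on HA and 52.8 FPKM on Control food (-0.49), and *DhpD* stood at -0.32.

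Of the 8 genes of eclosion and hardening hormones 3 passed. The eclosion hormone gene *Eh* had 2.04 FPKM on HA and 3.57 FPKM on Control food (-0.59), and the cardioactive peptide gene *CCAP* 3.34 and 6.48 FPKM (-0.79), both called lower, which is 2 of 3 where 6.72% of all genes were. *ETH*, the ecdysis-triggering hormone gene, stood at -0.11. Of the 24 *Osiris* genes, which are expressed with cuticle formation, only *Osi2* passed, at 1.71 FPKM on HA and 1.22 FPKM on Control food (0.28). Of the 13 ecdysone-response and epidermal regulators found, 12 passed with a median of 0.02 and 0 called; *ftz-f1*, a nuclear receptor that acts on *Edg* genes, had 12.02 FPKM on HA and 10.8 FPKM on Control food (0.15).

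**Figure D5:**
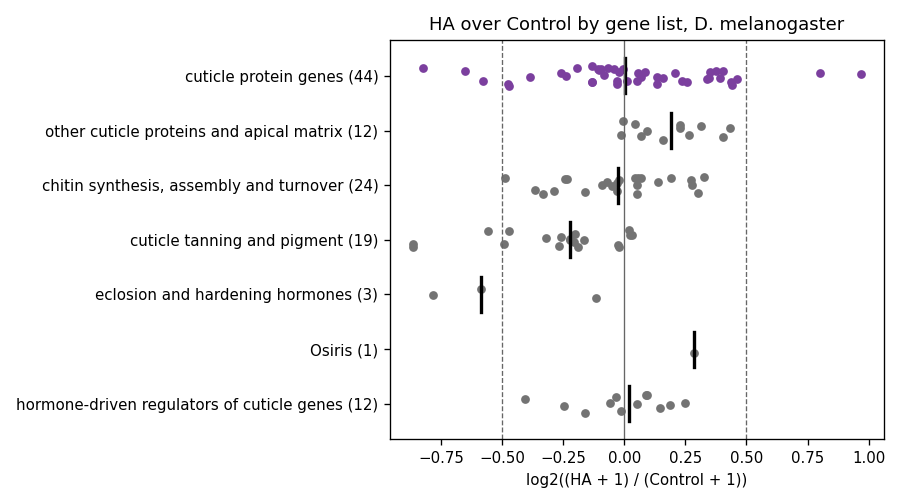
Log2 ratio of HA over Control for each gene with at least 1 FPKM in either diet, by list, with the number of genes in brackets, a black bar at the median and dashed lines at 0.5 in size. The cuticle protein genes center on 0, and 16 of the 19 tanning and pigment genes lie below 0.

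Markers of sex and tissue were read in the same table. The yolk protein genes *Yp1*, *Yp2* and *Yp3* had 4202 to 9099 FPKM on HA and 4199 to 8392 FPKM on Control food. None of the 18 male accessory gland and testis genes found reached 1 FPKM (0 to 0.592 on HA, 0 to 0.602 on Control), nor did any of the 6 larval salivary glue genes. Markers of other tissues with calls were the gut serine proteases of the Jonah family, with a summed 7840 FPKM on HA and 9763 FPKM on Control food and 4 of 15 called lower, and the larval serum and fat body proteins, with 5 of 6 called higher and 1 lower and a summed 124 FPKM on HA and 112 FPKM on Control food. The 14 eggshell genes had a summed 17280 FPKM on HA and 18818 FPKM on Control food, with 1 called higher and 4 lower. Of all genes passing the filter 2.08% were called higher and 6.72% lower. The part of these tissues in the cuticle gene values was not tested.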

How the data were processed

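RNA-seq was made from whole adult females of 3 species on HA or Control food, with 18 libraries in 6 groups. The authors assessed reads with FASTQC, mapped them with Bowtie2 (genome BDGP6 for *D. melanogaster*) and ran Cuffdiff (on Galaxy) with its geometric normalization, correcting for library size and for bias. Versions of these programs are not given in the sources used here. The deposited FPKM values are pooled by Cuffdiff over the 3 libraries of a diet, so replicate spread and depth per library are not known from them. The tables also hold the authors' own fold changes, test statistics, p-values and q-values, which were not used.

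Computed here, with Python 3.11.15, pandas 2.3.3 and NumPy 2.4.6 (figures with matplotlib 3.10.9), were log2 ratios with a pseudocount of 1, a filter of at least 1 FPKM in either diet, calls at 0.5 in size, and the same counts over all genes of the table. The call rule was tested on simulated data with little noise, with large changes planted in genes with a mean of at least 5 FPKM. That test does not show how well the rule finds small changes or changes in genes of lower level. Nor does it show how often unchanged genes are called at the spread of real libraries. Loci are given with the start counted from 1. All 125 identifiers were found in the Ensembl BDGP6 annotation (release 115) on the same arm and inside the table locus. Genes were counted as overlapping from that annotation, which is a later release than the one the authors used. *Cpr57A* and *Cpr65Au* overlap other genes there but share their locus in the table with none. Reads from overlapping or antisense genes may not have been told apart.

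The members and lists were chosen with earlier results of these data known. Genes named were those called, the 12 of highest level, those nearest to the filter and *Cpr62Bc*, which the study names. Members outside this rule were named after their values were seen. By its own test, the study lists *Cpr62Bc* as upregulated in both *D. melanogaster* and *D. simulans* and not significant in *D. sechellia*. That test differs from the call rule used here. The lists were other cuticle proteins, chitin, tanning, hormones, *Osiris*, regulators and, as markers, yolk, eggshell, male, glue, larval serum and gut genes; *Cp1*, *Cp110* and *Cp190*, which matched the eggshell pattern by symbol alone, were left out of its sums. Symbols were matched as listed or through the current gene names. Alternatives covered the pseudocount, threshold, filter, centring and shared loci. No sequences are given.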

Additional observations from a re-analysis of the deposited data

How the results depend on the processing

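No paired analysis was possible because each group has 1 pooled value, and no library could be left out for the same reason. In *D. simulans* and *D. sechellia* no gene matched, so the alternatives gave no value there. In *D. melanogaster*, the count of cuticle genes higher on HA food (2) became 6 with a pseudocount of 0.1 and 6 with none, 11 at a threshold of 0.3, 0 at a threshold of 1, 0 with at least 5 FPKM in either diet, 1 with a mean of at least 1 FPKM and 1 without shared loci and near-identical copies. With at least 1 FPKM in both diets, chosen after seeing the data, it was 0, and 8 with that filter and a threshold of 0.3. The count lower (3) became 6 at 0.3, 0 at 1, 5 at 0.3 with at least 1 FPKM in both diets and 1 without shared loci and copies, and was 2 to 4 otherwise. Without shared loci and copies, 33 cuticle genes passed. The 10592 background genes were not reduced in that way, so their shares of 2.08% higher and 6.72% lower are not a like comparison for that setting. The median log2 ratio (0.0016) became 0.032 with at least 5 FPKM, -0.0073 with a mean of at least 1 FPKM, -0.0073 with at least 1 FPKM in both diets at either threshold, -0.0090 with no filter and 0.054 without shared loci and copies. Of 168 log2 ratios of 17 named members under alternatives, 143 were equal to 2 decimals, 25 moved and 0 changed sign. These counts are no measure of stability. A threshold, a filter or the removal of shared loci leaves the ratio of a gene as it is. Only the pseudocount and the centring could move it. A pseudocount cannot change the sign, and the centring shifted each ratio by only 0.0017. With no pseudocount *Cpr64Ac* was at 2.39, *Cpr49Ac* at 1.40 and *Cpr67Fb* at -1.42. Most genes that passed are under 10 FPKM, and the error of such values is unknown here.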
